A study of Mus musculus with 29 samples.

Results

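Hematopoietic stem cells (HSCs) are isolated by the proteins on their surface. This report follows 9 transcripts that define them in mice: Kit, Ly6a, Slamf1, Cd48, Cd34, Flt3, Procr, Fgd5 and Ctnnal1. They were chosen by symbol, as the genes of the sorting markers plus 2 genes used as HSC reporters, and all 9 were found among the 55376 gene symbols of the count tables. KIT is the receptor for stem cell factor and SCA-1, the product of Ly6a, is a GPI-anchored protein, and together they mark the most immature cells that lack lineage markers. CD150, the product of Slamf1, and CD48 belong to the SLAM family of receptors: HSCs carry the former and multipotent progenitors gain the latter. CD34 and FLT3 (Flk2) appear as adult mouse HSCs become progenitors. EPCR, the product of Procr, is the receptor for activated protein C, Fgd5 encodes an exchange factor for the GTPase CDC42, and Ctnnal1 encodes alpha-catulin, and each is enriched in HSCs.

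RNA-seq was performed on bone marrow HSCs of mice labelled WT or Gadd45KO, a knockout of Gadd45b, each as young or old. The libraries number 4 young WT (YWT), 4 old WT (OWT), 4 young knockout (YKO) and 7 old knockout (OKO). The knockout is constitutive, so every cell of those mice carries it, and the WT mice are of the C57BL/6J strain. The gate that the study describes for HSCs took cells without lineage markers that were positive for KIT, SCA-1 and CD150 and negative for CD34 and Flk2; a separate gate for RNA-seq is not given. Kit, Ly6a and Slamf1 therefore encode proteins the cells were selected to carry, and Cd34 and Flt3 encode proteins they were selected to lack. CD48, EPCR, FGD5 and alpha-catulin were not part of that gate.

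Several facts about the libraries bear on the markers. Totals ranged from 22197555 to 77970627 counts, and the OWT libraries and 4 of the OKO libraries (OKO4 to OKO7) have the title prefix IB15, which no young library has. Age in WT mice and this prefix, called a batch below, cannot be told apart. Gadd45b itself was present at 10.5 ± 4.69 CPM (a count relative to the size of its library; SD, n = 4) in YWT, 11.5 ± 2.63 (n = 4) in OWT, 9.53 ± 4.64 (n = 4) in the libraries labelled YKO and 4.45 ± 1.39 (n = 7) in OKO, so it does not separate YKO from YWT. The transcript of immunoglobulin M, Ighm, which B lineage cells make, reached 164540 CPM in YWT2 and was between 109 and 208 CPM in OKO1, OKO2 and OKO3. All samples are labelled female, yet 7 of 19 libraries, at least 1 in every group, held 122 CPM or more over 4 Y-linked genes and the other libraries 0.132 CPM or less.

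Where the markers lie and what precedes them is given first, since the transcript levels of Slamf1, Procr and Fgd5 varied together across libraries. Whether their transcription did was not measured. In GENCODE M21 on mm10, the 9 genes are protein-coding. Slamf1 lies at chr1:171767127-171801184 and Cd48 at chr1:171682009-171705258, both on the plus strand, and Cd34 at chr1:194938819-194961279, also on the plus strand. Procr lies at chr2:155751117-155755471 (plus), Kit at chr5:75574916-75656722 (plus), Flt3 at chr5:147330741-147400489 (minus), Fgd5 at chr6:91978878-92076004 (plus), Ctnnal1 at chr4:56810935-56865188 (minus) and Ly6a at chr15:74994877-74998031 (minus). Exons of Cd34 share 148 bases, 2.03% of its 7290 exon bases, with the antisense gene Gm16897. No other member shares exon bases with another gene.

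The sequence just upstream of these 3 genes, 3 of the 5 that varied together as given further on, is shown so that their promoters can be compared. It comes from the RefSeq windows of GRCm38.p6, read 5′ to 3′ on the plus strand and stopped before the earlier of the RefSeq and GENCODE starts. Capitals mark matches to 8 motifs that were searched on both strands: AGATAA for GATA factors, TGTGGT for RUNX factors, AGGAAG for ETS factors, with CGGAAG as another ETS form and ACCGGAAG as a longer one that contains it, CAGCTG as an E-box, with CAGATG as another E-box form, and TGACTCA for AP-1.
Slamf1, chr1:171766882-171767126, plus strand: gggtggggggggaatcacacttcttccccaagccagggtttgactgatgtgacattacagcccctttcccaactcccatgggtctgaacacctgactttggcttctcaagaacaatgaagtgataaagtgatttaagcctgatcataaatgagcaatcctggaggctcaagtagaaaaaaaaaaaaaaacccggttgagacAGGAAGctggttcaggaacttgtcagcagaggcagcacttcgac
Procr, chr2:155750967-155751116, plus strand: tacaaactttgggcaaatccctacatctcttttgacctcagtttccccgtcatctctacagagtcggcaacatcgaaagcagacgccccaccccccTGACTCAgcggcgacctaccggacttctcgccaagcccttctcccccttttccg
Fgd5, chr6:91978715-91978877, plus strand: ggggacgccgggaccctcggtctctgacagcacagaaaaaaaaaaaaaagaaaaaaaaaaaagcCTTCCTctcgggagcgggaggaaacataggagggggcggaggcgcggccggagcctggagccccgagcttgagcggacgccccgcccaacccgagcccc

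In the parts printed, Slamf1 and Fgd5 each held 1 match to AGGAAG, on opposite strands, and Procr held 1 AP-1 match. The full windows of 250 bases before the RefSeq start were compared for the 8 members that have one. AGGAAG was in the windows of 4 of 8 members (Cd34, Fgd5, Kit and Slamf1), against 29.5% of all 32851 windows. The AP-1 letters were in 1 of 8 (Procr) against 4.46%, and CAGCTG as well as CGGAAG in 1 of 8 (Procr, nearer the start than the part printed) against 13% and 13.6%. The RUNX letters were in 1 of 8 (Cd48) against 14.0%, CAGATG was in 1 of 8 (Flt3) against 14.4%, and the GATA letters and ACCGGAAG were in 0 of 8 against 9.99% and 1.72%. No single 1 of the 8 letter strings was in the windows of all 3 genes. Each window did hold an ETS form, AGGAAG in Slamf1 and Fgd5 and CGGAAG in Procr. The CGGAAG and CAGCTG of Procr lie 85 and 34 bases before the RefSeq start, but after the GENCODE start, so within the gene by that annotation. The share of all windows with either ETS form was not counted.

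Levels were compared between genes per kilobase of merged exon. In median over the 19 libraries, Ly6a stood at 234 CPM per kb, Kit at 113, Procr at 57.7, Cd34 at 15.9, Cd48 at 11.9, Fgd5 at 11.7, Slamf1 at 9.49, Ctnnal1 at 6.29 and Flt3 at 2.46. Kit exceeded Procr, Procr exceeded Cd34, Slamf1 exceeded Ctnnal1 and Ctnnal1 exceeded Flt3 in 19 of 19 libraries each. Ly6a exceeded Kit in 17 of 19. The order of Cd34, Cd48 and Fgd5 was not fixed, with Cd34 above Cd48 in 12 of 19 and Cd48 above Fgd5 in 9 of 19 libraries, and Fgd5 exceeded Slamf1 in 14 of 19. Among the proteins that the gate excluded, the Cd34 transcript was thus in median above that of Slamf1, whose protein was required, whereas Flt3 was the lowest of the 9. In OWT1 the order of Cd34 and Slamf1 was the reverse. Relative to its own mean, Kit varied least between libraries (coefficient of variation 21.1%) and Cd48 most (79.8%, from 0.261 to 39.4 CPM per kb).

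**Figure D1:**
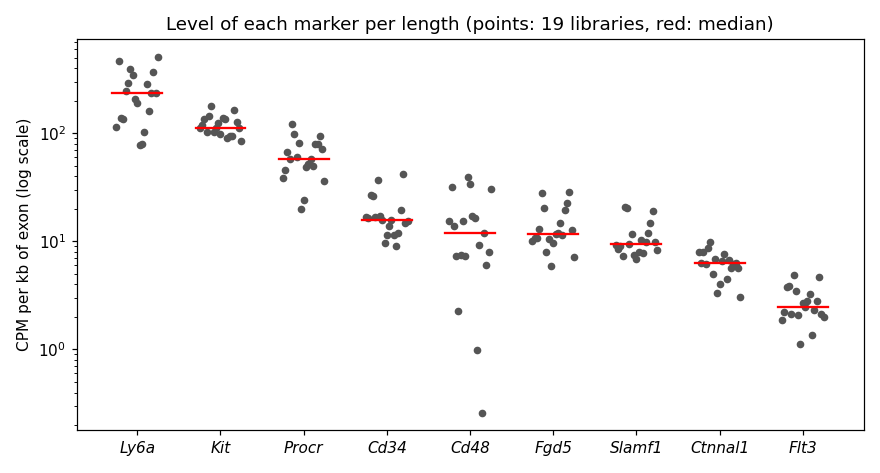
Levels of the 9 marker transcripts in CPM per kilobase of exon on a log axis, with 1 point for each of the 19 libraries and a red line at the median. Ly6a (median 234) and Kit (113) lie highest and Flt3 (2.46) lowest, and Cd48 has the widest spread.

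Differences between groups were tested with the quasi-likelihood test of edgeR on all 19 libraries, calling a gene at a Benjamini-Hochberg adjusted p under 0.05, over all 33690 genes tested, and a fold change over 1.5. Beside each count of members stands the percentage of all tested genes that met the same rule. In OWT vs YWT 0 of 9 members were called (background 0.00297%), and 2 of 9 had an unadjusted p under 0.05 (4.38%), both higher in OWT. In YKO vs YWT 0 of 9 were called (0.0267%) and 0 of 9 had an unadjusted p under 0.05 (4.59%). In OKO vs YKO 0 of 9 were called (1.29%), 3 had an unadjusted p under 0.05 and were higher in OKO, and 1 was lower (15.8%). In OKO vs OWT 0 of 9 were called (0.0327%) and 0 of 9 had an unadjusted p under 0.05 (8.14%). For the genotype by age interaction 0 of 9 were called (0%) and 0 of 9 had an unadjusted p under 0.05 (4.62%). In OKO vs YKO 0 of 9 members were without overlap between the groups (2.6%), and in OKO vs OWT 0 of 9 (0.819%). DESeq2, run as an alternative, called 1 of 9 in OKO vs YKO (Procr, background 6.3%) and 0 of 9 in the other 3 comparisons and the interaction.

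The members' median log2 fold change was 0.19 in OWT vs YWT, -0.38 in YKO vs YWT, 0.48 in OKO vs YKO and -0.29 in OKO vs OWT. The medians over all tested genes in the same order were -0.05, -0.02, 0.23 and 0.12. OWT vs YWT shares the YWT libraries with YKO vs YWT, and the other comparisons share libraries in the same way, so these directions are not independent of each other. The shift of all genes in OKO vs YKO depended on the scaling and was 0.43 on the log2 scale with upper-quartile normalization.

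**Figure D2:**
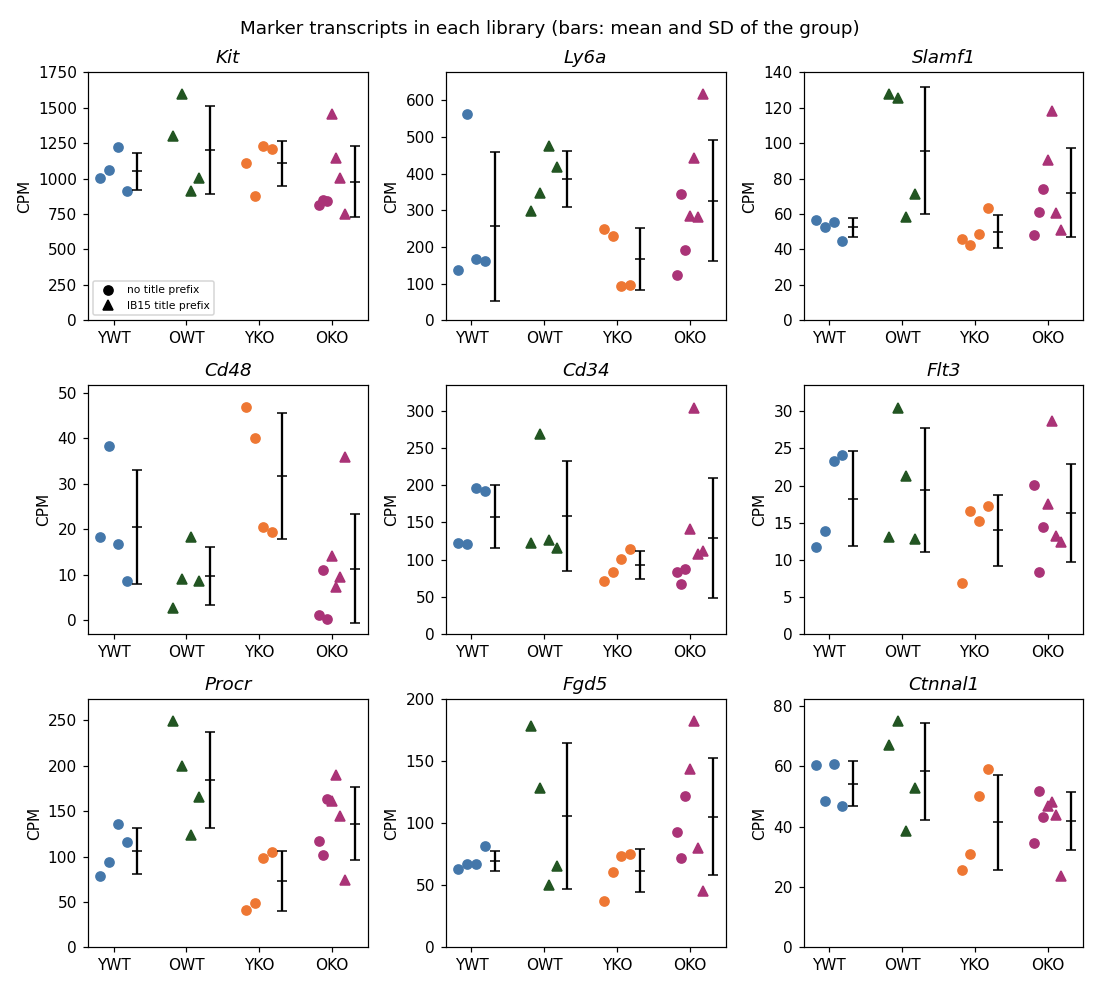
CPM of each marker in every library by group, on linear axes, with round points for libraries without a title prefix, triangles for the IB15 prefix, and bars for the mean and SD of the group. Slamf1 in OWT (58.4 to 127) lies above YWT (44.7 to 56.9), and Cd34 in YKO (71.1 to 115) lies below YWT (121 to 197).

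Of the genes whose proteins were required by the gate, Kit was the steadiest. It stood at 1007, 1062, 1219.8 and 910.5 CPM in YWT and at 1301, 1593, 909 and 1002 in OWT. YKO held 1112, 880.4, 1228 and 1207 CPM, and OKO ranged from 752 to 1454 with a median of 846. All 4 groups overlapped. The log2 fold changes were 0.19 ± 0.26 (SE) in OWT vs YWT, 0.08 ± 0.26 in YKO vs YWT, -0.18 ± 0.23 in OKO vs YKO and -0.29 ± 0.23 in OKO vs OWT, and the 95% interval of each included 0.

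These are bulk samples, in which fewer cells of a type and less RNA per cell cannot be told apart. Ly6a, with wide groups, stood at 137, 562, 166 and 163 CPM in YWT and at 299.6, 349, 475 and 419 in OWT. YKO held 251, 229.9, 93.3 and 96.7 CPM, and OKO ranged from 124 to 616 with a median of 285. Without YWT2 the young WT libraries lie below all OWT libraries, and YWT2 lies above them. The log2 fold change was 0.59 ± 0.47 (SE) in OWT vs YWT and 0.96 ± 0.43 in OKO vs YKO, where the unadjusted p of the edgeR test was 0.034 and the adjusted p 0.27. Without YWT2 the OWT vs YWT value was 1.31 ± 0.43, with an unadjusted p of 0.0062 and an adjusted p of 0.94 by the edgeR test. Between genotypes it was -0.62 ± 0.47 in YKO vs YWT and -0.24 ± 0.41 in OKO vs OWT. With OKO1 to OKO3 alone, without a prefix like YKO, the OKO vs YKO value was 0.46 (edgeR adjusted p = 0.47). Without YWT2, YKO1 and YKO2 it was 1.80 (edgeR adjusted p = 0.23), a fit added after the data were seen. YWT2, YKO1 and YKO2 held the most Ighm of the young libraries, at 164540, 59916 and 38295 CPM. OKO5 and OKO7, at 46391 and 40650 CPM of Ighm, stayed in that fit.

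Slamf1 was higher in every OWT than in every YWT library. It stood at 56.9, 52.9, 55.5 and 44.7 CPM in YWT and at 127, 126, 58.4 and 71.4 in OWT. YKO held 45.8, 42.4, 48.7 and 63.6 CPM, and OKO ranged from 48.1 to 118 with a median of 61.0. Slamf1 was the 1 member of 9 without overlap in OWT vs YWT, a pattern that 4.13% of all tested genes had. The log2 fold change was 0.87 ± 0.28 (SE), with an unadjusted p of 0.0057 and an adjusted p of 0.69 by the edgeR test. OWT1 and OWT2 were high, while OWT3 was close to YWT. In OKO vs YKO the log2 fold change was 0.52 ± 0.25, with an adjusted p of 0.32.

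Cd34 and Flt3 encode the proteins that the gate excluded. Cd34 stood at 122, 121, 197 and 192 CPM in YWT and at 122, 269.7, 126 and 116 in OWT. YKO held 71.1, 83.8, 101 and 115 CPM, and OKO ranged from 66.7 to 304 with a median of 107. Every YKO library was below every YWT library, and Cd34 was the 1 member of 9 without overlap in YKO vs YWT (5.12% of all tested genes). The log2 fold change there was -0.77 ± 0.38 (SE), with an unadjusted p of 0.056 and an adjusted p of 1 by the edgeR test. In OWT vs YWT it was 0.01 ± 0.38.

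Cd34 also differed between the libraries of OKO. The 3 without a prefix held 83.5, 66.7 and 87.7 CPM and the 4 with the prefix IB15 held 141, 304, 107 and 112. The log2 difference, IB15 minus no prefix, was 1.07 ± 0.35 (SE) with an adjusted p of 0.046 by the edgeR test, and Cd34 was the 1 of 9 members called between these batches (background 14.6%). That call was lost in 16 of 19 leave-one-out fits, in which the value ranged from 0.60 to 1.23. Between these batches 2 of 9 members, Cd34 and Cd48, had an unadjusted p under 0.05 by the edgeR test (background 37.7%). Cd34 was the 1 of 9 without overlap (background 32.4%). By each of these counts the markers did not exceed the share of all genes. Against YKO, the pooled log2 fold change of OKO was 0.48 ± 0.34, and it was -0.16 with OKO1 to OKO3 alone, which like YKO have no prefix.

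Flt3 was low throughout. It stood at 11.7, 13.8, 23.3 and 24.1 CPM in YWT and at 13.1, 30.5, 21.3 and 12.8 in OWT. YKO held 6.92, 16.5, 15.2 and 17.2 CPM, and OKO ranged from 8.33 to 28.7 with a median of 14.4. All groups overlapped, and the largest difference was a log2 fold change of -0.38 ± 0.37 (SE) in YKO vs YWT, with an interval from -1.14 to 0.38.

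Cd34 and Flt3 varied together, and in each WT group the libraries with Y-linked reads held the most of both. For Flt3 the split was less clear. OWT3, without Y-linked reads, held 21.3 CPM of Flt3, near the 23.3 and 24.1 CPM of YWT3 and YWT4. YKO2, also without them, held 16.5 CPM of Flt3 against 15.2 in YKO3, which had them. In YWT, Cd34 was 197 and 192 CPM in YWT3 and YWT4, which held Y-linked reads, and 122 and 121 CPM in YWT1 and YWT2, which did not. In OWT, OWT2 held Y-linked reads and 269.7 CPM of Cd34, and the other libraries held 116 to 126 CPM. In YKO, YKO3 and YKO4 held Y-linked reads and 101 and 115 CPM, above the 71.1 and 83.8 CPM of YKO1 and YKO2. In OKO the order was mixed: OKO1 and OKO5 held Y-linked reads, at 83.5 and 304 CPM, and the other libraries ranged from 66.7 to 141 CPM. Over residuals, Cd34 and the mean of the Y-linked genes gave r of 0.84 and rho of 0.68 (permutation p of 0.00059 and 0.0025, adjusted p = 0.0069), with r of 0.80 without OWT2 and OKO5, 0.85 without a prefix and 0.98 with IB15. Flt3 and the same genes gave r of 0.80 and rho of 0.74 (permutation p of 0.00084 and 0.0015, adjusted p = 0.0076), with r of 0.72 without those libraries, 0.76 without a prefix and 0.87 with IB15. With Y-linked reads as a covariate, added after the data were seen, Cd34 in YKO vs YWT gave a log2 fold change of -0.74 ± 0.29 (SE), with an adjusted p of 0.93.

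Cd48, whose protein marks progenitors, had the widest range of the 9. It stood at 18.3, 38.2, 16.7 and 8.69 CPM in YWT and at 2.72, 8.97, 18.2 and 8.70 in OWT. YKO held 46.9, 39.96, 20.5 and 19.4 CPM, and OKO ranged from 0.310 to 35.9 with a median of 9.39. In OKO1 and OKO3 it was 1.17 and 0.310 CPM, whereas OKO7 at 35.9 CPM reached the level of YKO. The log2 fold change was -1.48 ± 0.70 (SE) in OKO vs YKO, with an unadjusted p of 0.045 and an adjusted p of 0.30 by the edgeR test. With OKO1 to OKO3 alone, which like YKO have no prefix, it was -2.87 (edgeR adjusted p = 0.031). Cd48 was the 1 of 9 members called there (background 17.9%). Those OKO libraries held 109 to 208 CPM of Ighm, against 3374 CPM or more in each YKO library. The part of that difference in the Cd48 value was not tested. The log2 fold change of Cd48 was -1.09 ± 0.82 in OWT vs YWT and 0.63 ± 0.81 in YKO vs YWT, both with intervals that included 0. With batch as a covariate the OWT vs YWT value was -3.09 ± 1.116 (unadjusted p of the edgeR test 0.011, adjusted p 0.22). That fit takes the batch difference from OKO alone, so it does not separate age from batch in WT mice. Within OKO, Cd48 differed by 2.00 ± 0.84 on the log2 scale, IB15 minus no prefix (adjusted p of the edgeR test 0.095). Without YWT2, YKO1 and YKO2 the OKO vs YKO value was -0.81 (edgeR adjusted p = 0.61). That fit left out the young libraries with the most Ighm and no old library.

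Transcripts of other blood cells varied between the same libraries. The summed level of 8 B cell genes ranged from 6748 to 165182 CPM in YWT, 2287 to 45933 in OWT, 3564 to 60704 in YKO and 141 to 46558 in OKO, mostly from Ighm. The summed level of 8 plasma cell genes, a list added after the data were seen, ranged from 5649 to 148392 CPM in YWT, 1803 to 45047 in OWT, 3337 to 60012 in YKO and 165 to 76254 in OKO. No gene of either list was at 0 in any library. In OKO vs YKO 5 of 8 B cell genes were called, all lower in OKO (0 higher), with a list median log2 fold change of -2.79 against 0.23 over all genes. Among them Cd22, a B cell receptor for sialic acids, fell by 6.18 on the log2 scale. The part of these cells in the levels of Ly6a and Cd48 was not tested beyond the relations and covariate fits given here.

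The 3 members outside the gate that mark HSCs are Procr, Fgd5 and Ctnnal1. Procr stood at 78.4, 93.6, 136 and 116 CPM in YWT and at 249, 200.02, 123 and 166 in OWT. YKO held 40.7, 49.4, 98.6 and 105 CPM, and OKO ranged from 74.0 to 189.9 with a median of 145. The groups overlapped in each comparison, in YWT and OWT by 1 library on each side. The log2 fold change was 0.80 ± 0.32 (SE) in OWT vs YWT, with an unadjusted p of 0.021, and 0.89 ± 0.29 in OKO vs YKO, with an unadjusted p of 0.0059 and an adjusted p of 0.14 by the edgeR test. It was -0.53 ± 0.32 in YKO vs YWT and -0.44 ± 0.28 in OKO vs OWT.

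The OKO vs YKO difference of Procr was near the threshold. DESeq2 gave a log2 fold change of 0.96 and an adjusted p of 0.011, and edgeR with upper-quartile normalization gave 1.05 and 0.040, the 1 of 9 called in each (background 3.2% for the latter). Without OKO7 the edgeR value was 1.17, and Procr was then called (background 5.47%). With OKO1 to OKO3 alone it was 0.86 (edgeR adjusted p = 0.063), and without YWT2, YKO1 and YKO2 it was 0.44 (edgeR adjusted p = 0.47). The latter fit left out the young libraries with the most Ighm and no old library. YKO1 and YKO2, the libraries with the lowest Procr, held 60704 and 39747 CPM summed over the B cell genes, against 3765 and 3564 in YKO3 and YKO4. YKO1 and YKO2 also lacked the Y-linked reads of YKO3 and YKO4, so these differences cannot be told apart in YKO. YWT2, with 165182 CPM of the B cell genes, held more Procr than YWT1, with 6748. Over residuals Procr gave r of -0.68 with the B cell list and 0.60 with the Y-linked genes (adjusted permutation p of 0.077 and 0.074).

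Fgd5 stood at 63.2, 67.4, 67.1 and 81.3 CPM in YWT and at 178, 128, 50.6 and 65.5 in OWT. YKO held 37.6, 61.0, 73.7 and 75.2 CPM, and OKO ranged from 45.2 to 182 with a median of 92.7. OWT was split, with OWT1 and OWT2 above every YWT library and OWT3 below them all. The log2 fold change was 0.60 ± 0.38 (SE) in OWT vs YWT, and 0.77 ± 0.34 in OKO vs YKO with an adjusted p of 0.28 by the edgeR test. It was 0.00 ± 0.33 in OKO vs OWT.

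Ctnnal1 stood at 60.5, 48.7, 60.8 and 46.9 CPM in YWT and at 67.2, 74.9, 38.6 and 52.7 in OWT. YKO held 25.5, 31.0, 50.1 and 59.2 CPM, and OKO ranged from 23.6 to 51.8 with a median of 43.8. Between the old and young knockouts it had a log2 fold change of 0.01 ± 0.24 (SE) and an interval from -0.49 to 0.51. In OKO vs OWT it was -0.48 ± 0.24, with an unadjusted p of 0.055 and an adjusted p of 0.59 by the edgeR test. Whether it differed there from Procr and Fgd5 was not tested.

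**Figure D3:**
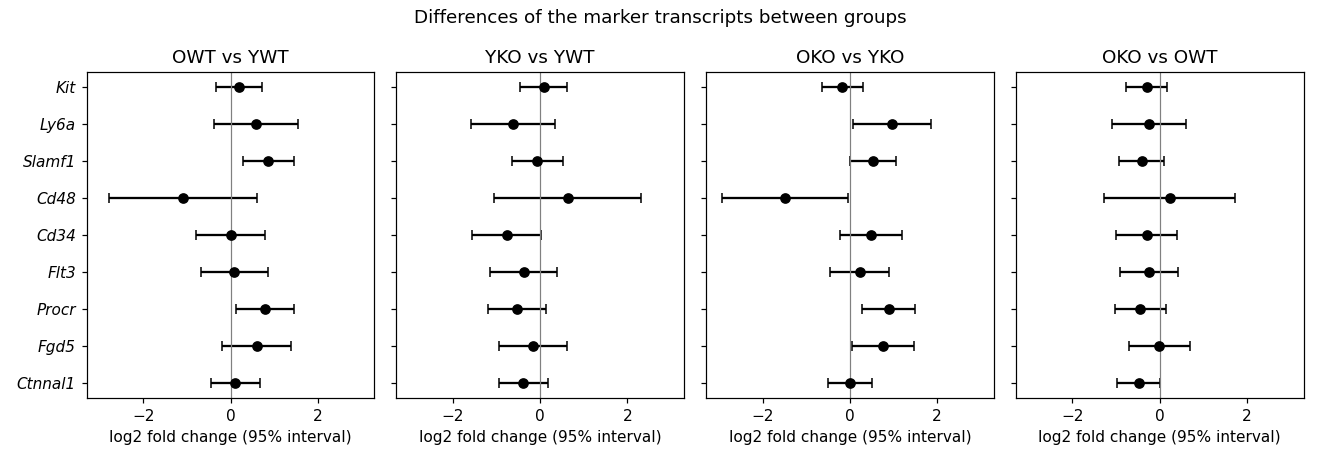
Log2 fold change of each marker in the 4 comparisons, with the 95% interval of the edgeR fit as a bar and a grey line at 0. In OWT vs YWT the intervals of Slamf1 (0.28 to 1.45) and Procr (0.13 to 1.46) lie above 0, and in OKO vs YKO those of Ly6a, Procr and Fgd5 do, whereas that of Cd48 lies below it.

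How the markers varied together within groups was computed next. Relations were taken over the 19 libraries after subtracting the mean of each group, and of each batch within OKO, from log2(CPM + 1). Of 36 pairs, 13 had a permutation p under 0.05 after Benjamini-Hochberg adjustment, 11 of them positive and 2 negative. Of the 13, 12 kept the same sign and an adjusted p under 0.05 under both other scalings tried. Kit and Slamf1 did not, with an adjusted permutation p of 0.084 after upper-quartile normalization. Under the main scaling the positive pairs formed 1 group of Kit, Slamf1, Procr, Fgd5 and Ctnnal1, with Cd34 and Flt3 as a pair of their own and Ly6a with Cd48 as another. The gaps between these groups depended on the scaling. With the library total alone, Cd34 was also related to Slamf1, Procr, Fgd5, Ctnnal1 and Kit (adjusted permutation p of 0.0073, 0.0073, 0.0074, 0.019 and 0.019). With upper-quartile normalization it was related to Procr (adjusted permutation p = 0.049). Within the first group Kit and Fgd5 fell short under the main scaling (r = 0.69, adjusted permutation p = 0.065). Their r was 0.04 without a prefix and 0.85 with IB15. All these libraries share a depth scaling, which links the residuals of all genes.

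In the first group, the pair with the lowest permutation p was Procr and Fgd5, with Pearson's r of 0.83 (permutation p = 2e-05, adjusted p = 0.00072) and Spearman's rho of 0.79 (permutation p = 4e-05). Without the 2 libraries farthest from the median of Procr, r was 0.74, and it was 0.83 over the 11 libraries without a prefix and 0.94 over the 8 with IB15. Slamf1 and Ctnnal1 gave r of 0.76 and rho of 0.75 (permutation p of 0.00028 and 0.00069, adjusted p = 0.0026), and r of 0.73 without 2 libraries, 0.70 without a prefix and 0.86 with IB15. Slamf1 and Fgd5 gave r of 0.85 and rho of 0.80 (permutation p of 0.0041 and 0.013, adjusted p = 0.015), and r of 0.79 without 2 libraries. That relation rested on the IB15 libraries, with r of 0.97 there against 0.32 over the libraries without a prefix. Slamf1 and Procr gave r of 0.69 (adjusted permutation p = 0.010), with 0.88 in IB15 against 0.50 without a prefix.

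Cd34 and Flt3, both encoding proteins of the negative gate, gave r of 0.84 and rho of 0.83 (permutation p of 0.00013 and 0.00015, adjusted p = 0.0023). Without OWT2 and OKO5, r was 0.81, and it was 0.85 without a prefix and 0.92 with IB15. Over the 11304 genes whose log2(CPM + 1) averaged 3 or more, Cd34 was second only to Gm16897 in likeness to Flt3, and Gm16897, the antisense gene that overlaps an exon of Cd34, was also the gene most like Cd34 (r = 0.96). Whether reads were counted by strand is not given in the sources used here, so reads of Cd34 and Gm16897 cannot be told apart in the bases they share. The other genes nearest to Cd34 were Vldlr (0.95), the very low density lipoprotein receptor, and I730030J21Rik (0.94), and the third for Flt3 was Il15 (0.82), a cytokine gene.

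Cd48 varied with Ly6a and against Procr and Fgd5. Ly6a and Cd48 gave r of 0.71 and rho of 0.63 (permutation p of 0.0023 and 0.011, adjusted p = 0.010), with r of 0.62 without YWT2 and OKO2, 0.75 without a prefix and 0.68 with IB15. Cd48 and Procr gave r of -0.75 and rho of -0.75 (permutation p of 0.0003 and 0.00043, adjusted p = 0.0026), with r of -0.79 without OKO2 and OKO3, -0.63 without a prefix and -0.93 with IB15. Cd48 and Fgd5 gave r of -0.72 and rho of -0.67 (permutation p of 0.00036 and 0.0034, adjusted p = 0.0026), with r of -0.75 without OKO2 and OKO3, -0.75 without a prefix and -0.83 with IB15.

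**Figure D4:**
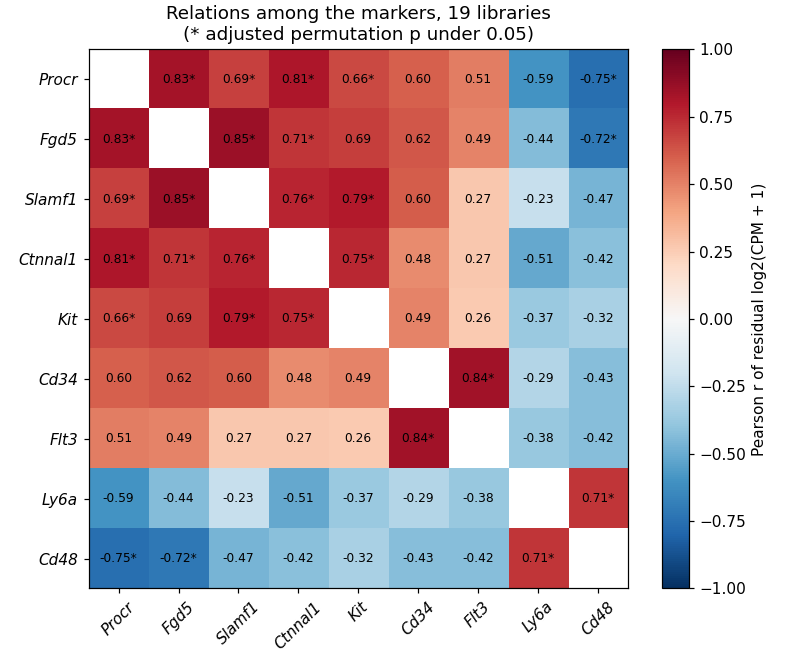
Pearson's r between each pair of markers over the 19 libraries, from log2(CPM + 1) with group and batch means removed; blue is negative, red positive, and an asterisk marks an adjusted permutation p under 0.05. Procr and Fgd5 (0.83) lie in a red block with Slamf1, Ctnnal1 and Kit, Cd34 pairs with Flt3 (0.84), and Cd48 is opposed to Procr (-0.75).

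The genes that varied most like each member differed in kind. For Ly6a they were Pdia4 (r = 0.96), Dnajc3 (0.95) and Serp1 (0.95), which act in protein folding and stress of the endoplasmic reticulum. For Cd48 they were Ifi30 (0.92), a lysosomal thiol reductase of antigen presentation, 5430427O19Rik (0.91) and Mthfd2 (0.89), an enzyme of mitochondrial folate metabolism. For Procr they were Galm (0.96), a sugar epimerase, and Npdc1 (0.96), and for Fgd5 they were Nav1 (0.97), a microtubule-associated protein, Ltbp3 (0.97), which binds latent TGF-beta, and 1700022N22Rik (0.97). For Slamf1 they were Klhl21 (0.97), an adaptor of a ubiquitin ligase, Gm16587 (0.96) and Mcoln1 (0.96), a lysosomal cation channel, for Kit Osbpl1a (0.96), Cdk17 (0.95) and Stard4 (0.94), of which Osbpl1a and Stard4 encode lipid-binding proteins, and for Ctnnal1 Slc24a5 (0.96), F11r (0.95) and Gm43621 (0.94). The values are descriptions over 19 libraries.

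Among 117 relations of the 9 members with 13 lists of other genes, also over residuals, the plasma cell list was nearest to Ly6a. It gave r of 0.85 and rho of 0.79 (permutation p of 0.00026 and 0.00021, adjusted p = 0.0048), with r of 0.76 without YWT2 and YKO2, 0.90 without a prefix and 0.71 with IB15. Ctnnal1 ran against it, with r of -0.69 and rho of -0.72 (permutation p of 0.0095 and 0.011, adjusted p = 0.043). With the mean level of the plasma cell list as a covariate, Ly6a in OKO vs YKO had a log2 fold change of 1.35 ± 0.27 (SE) and an adjusted p of 0.016 by the edgeR test, and it was then the 1 of 9 members called (background 0.988%). That list was added after the data were seen. Its mean log2(CPM + 1) was 2.44 to 2.96 in OKO1 to OKO3, the OKO libraries without a prefix, against 4.37 to 8.10 in YKO. For those OKO libraries the fit thus extends beyond the levels seen in YKO. The B cell list gave r of 0.69 and rho of 0.64 with Ly6a (permutation p of 0.0019 and 0.0088, adjusted p = 0.015), with r of 0.66 without 2 libraries. Cd48 and the plasma cell list gave r of 0.46 with an adjusted p of 0.077, and rho of 0.43 (permutation p = 0.059).

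**Figure D5:**
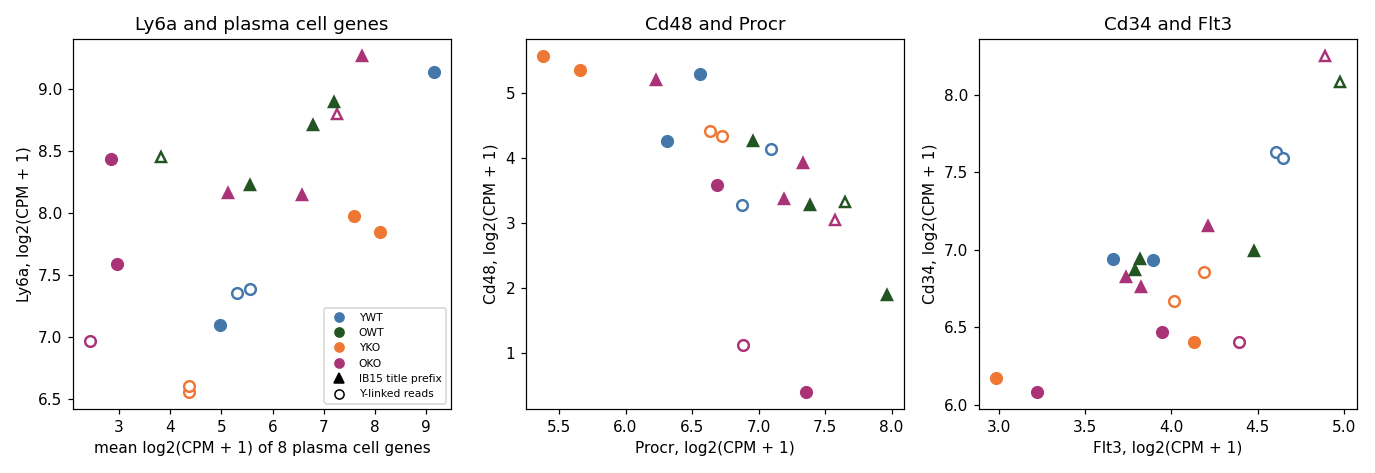
Each library as a point, on log2(CPM + 1) axes: Ly6a against the mean of 8 plasma cell genes, Cd48 against Procr, and Cd34 against Flt3, with colour for the group, triangles for the IB15 prefix and open symbols for libraries with Y-linked reads. Ly6a rises with the plasma cell genes (residual r = 0.85), Cd48 falls as Procr rises (-0.75), and the open symbols of YWT, OWT and OKO5 lie at the top right of the panel of Cd34 and Flt3.

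The members of the first group also varied with 18 other genes enriched in HSCs, such as Mecom, Hlf, Hoxb5, Tek and Vwf. Over residuals, Fgd5 and the mean of this list gave r of 0.92 and rho of 0.88 (permutation p of 0.00016 and 0.00092, adjusted p = 0.0037), and r of 0.86 without OWT3 and OKO7, 0.76 without a prefix and 0.98 with IB15. Procr gave r of 0.89 and rho of 0.84 (permutation p of 8e-05 and 0.00023, adjusted p = 0.0037), and r of 0.84 without the same libraries, 0.87 without a prefix and 0.96 with IB15. Cd48 gave r of -0.62 and rho of -0.58 (permutation p of 0.009 and 0.019, adjusted p = 0.043), and r of -0.47 without those libraries. In OWT vs YWT 0 of the 18 list genes were called and all 18 had higher estimates in OWT, with a median log2 fold change of 0.49 against -0.05 over all genes tested. The summed level of the list was 13767 and 13680 CPM in OWT1 and OWT2. It was 7581 and 8346 CPM in OWT3 and OWT4, within the range of YWT (7229 to 8541). Age and batch cannot be told apart in this comparison. In OKO vs YKO 0 of 18 were called, 17 had higher estimates, and the median was 0.48 against 0.23. Between genotypes 0 of 18 were called as well, with 15 lower estimates in YKO vs YWT (median -0.39 against -0.02) and 17 lower in OKO vs OWT (median -0.34 against 0.12).

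The progenitor and lineage lists were read beside the markers. Of 7 lymphoid-primed progenitor genes, 0 were called in OWT vs YWT, YKO vs YWT or OKO vs OWT. Ctnnal1 ran against this list, with r of -0.89 and rho of -0.87 (permutation p of 0.00045 and 0.0011, adjusted p = 0.0058), and r of -0.92 without YKO2 and YKO4. So did Procr, Slamf1, Kit and Fgd5, with r of -0.78, -0.68, -0.67 and -0.59 (adjusted permutation p of 0.033, 0.0037, 0.0076 and 0.043). Of 8 erythroid genes, 5 were called in OKO vs YKO, all lower in OKO, led by Alas2, the heme synthesis enzyme of red cells, which fell by 4.42 ± 0.35 (SE) on the log2 scale (edgeR adjusted p = 3.79e-07). Alas2 was also the 1 erythroid gene called in YKO vs YWT, where it rose by 2.22 ± 0.39 (edgeR adjusted p = 0.043). Of 10 neutrophil and monocyte genes, Prtn3, the proteinase 3 gene, rose by 2.47 ± 0.34 in OKO vs YKO and Csf1r, the receptor for colony stimulating factor 1, fell by 1.21 ± 0.26 (edgeR adjusted p of 0.0006 and 0.019).

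Relatives and partners of the markers were checked as well. Of 9 SLAM family genes found among 10 listed, 1 was called in any of the 4 comparisons: Slamf6, a lymphocyte receptor, which fell by 2.06 ± 0.51 (SE) on the log2 scale in OKO vs YKO (edgeR adjusted p = 0.047). Of 10 Ly6 family genes, 0 were called in any comparison, and the most abundant was Ly6e, at 1138 ± 510 CPM (SD, n = 4) in YWT and 1558 ± 239.9 (n = 4) in OWT. Of 5 ligands and partners, 0 were called in any comparison. They include Kitl, the KIT ligand, with 1.00 ± 0.286 CPM (SD, n = 4) for YWT and 0.537 ± 0.223 (n = 4) in OWT, and Cdc42, the target of FGD5, at 586 ± 61.1 CPM (n = 4) in YWT and 698 ± 107 (n = 4) in OWT. Of 8 T cell genes, 2 were called in OKO vs YKO, both lower in OKO, and these were Cd3e, a subunit of the T cell receptor complex, which is also the 1 of 7 lineage gate genes called, and Cd4. Of 7 megakaryocyte genes and 8 plasma cell genes, 0 were called in any comparison.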

How the data were processed

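The authors trimmed reads with Trim Galore 0.4.3 and cutadapt, mapped them to mm10 using STAR and the annotation GENCODE M22, and deposited the raw counts that featureCounts gave per gene symbol, for 19 libraries made with the SMART-seq v4 kit. The 10 WGBS samples were not analysed here. Counts were filtered with filterByExpr, scaled by the TMM method and fitted with edgeR 4.0.16 (limma 3.58.1, R 4.3.3) in 1 model with 1 mean per group. DESeq2 1.42.0 was an alternative. CPM values use the TMM factor, and 1 was added before logarithms. Depth was 22197555 to 77970627 counts, and the lowest member count was 20. Replicates are separate GEO samples, and the labels do not say which animals gave them, so p-values measure the spread between these samples. Relations were tested by 100000 permutations within group and batch, two-sided, of which 1e-05 is the smallest p. Code was tested on simulated data.

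Genes named beside the members are the 3 most alike to each by residual r, the called genes of each list and the most abundant of a list. Some results that this rule would name are not reported here. The members and lists were chosen with earlier results of these data known, and no p was adjusted over a list alone. The plasma cell list and the fits with it, with Y-linked reads, without YWT2, YKO1 and YKO2, and without OKO1, OKO2 and OKO3 were added after the data were seen. The study's library table lists a sex for YWT, YKO and OKO, which was one covariate tried, and that sex went against the Y-linked reads in 3 of 15 listed libraries. Alternatives also covered normalization, filters, batch, the replicate block and each library left out. RefSeq windows matched 8 of 9 members.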

Additional observations from a re-analysis of the deposited data

Results flagged for a closer look

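Among the 36 sets of replicates formed by 9 markers and 4 groups, 4 held a library whose gap to its nearest neighbour exceeded the 95% critical value of Dixon's test, where chance flags about 1 in 20 sets. Ly6a in YWT2 stood at 562 CPM, and that library also held the most Ighm. Cd34 in OWT2 stood at 269.7 CPM and in OKO5 at 304 CPM, and both libraries held Y-linked reads. Cd48 in OKO7 stood at 35.9 CPM, in the library with the lowest Kit, Procr, Fgd5 and Ctnnal1 of OKO. What sets these libraries apart was not tested.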

How the results depend on the processing

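In YKO vs YWT, OWT vs YWT, OKO vs OWT and the interaction, 0 of 9 markers were called under each alternative that was run. In OKO vs YKO 1 marker was called with DESeq2, upper-quartile normalization and Y-linked reads as a covariate (Procr each time; 6.3%, 3.2% and 1.83% of all genes were called), with batch as a covariate and with OKO of 1 batch (Cd48; 19.1% and 17.9%), and with the plasma cell list as a covariate (Ly6a; 0.988%). Keeping genes from a mean CPM of 5 gave 2 (Procr and Slamf1; 12.1%), and leaving out 1 library gave 0 to 1, with Procr called without OKO7. Between the batches of OKO the count fell from 1 to 0 with upper-quartile normalization, DESeq2 size factors, genes unfiltered, genes kept from a mean CPM of 5, and without YWT2, YKO1 and YKO2, and ranged from 0 to 1 when 1 library was left out. The number of related pairs was 33 with the library total alone, 20 with upper-quartile normalization and 10 to 21 without 1 library, the last without OWT1. These counts used 20000 permutations, and the cause of their change was not tested. Over all genes, the number called in OKO vs YKO was 434, and 2122 with DESeq2, 6420 with batch as a covariate, 1774 with the replicate block and 22 without YWT2, YKO1 and YKO2. For the 4 comparisons, and for Cd34 between batches, log2 fold changes of single markers kept their sign in 411 of 449 values under other settings, and the 38 that did not follow. Single values of the interaction are not printed. With DESeq2, and with its size factors in edgeR, Cd34 in OWT vs YWT was -0.045 and Fgd5 in OKO vs OWT 0.13. With upper-quartile normalization Cd34 and Flt3 in OWT vs YWT were -0.095 and -0.0060, and Fgd5 in OKO vs OWT 0.25. With genes unfiltered Cd34 in OWT vs YWT was -0.013 and Fgd5 in OKO vs OWT 0.075. Keeping genes from a mean CPM of 5 gave -0.11 for Cd34 and -0.022 for Flt3 in OWT vs YWT, 0.053 for Kit in OKO vs YKO, and 0.044 for Flt3 and 0.30 for Fgd5 in OKO vs OWT. With the compared groups only, Cd34 in OWT vs YWT was -0.025 and Fgd5 in OKO vs OWT 0.12. With batch as a covariate Kit, Ly6a, Cd34 and Flt3 in OWT vs YWT were -0.19, -0.30, -1.06 and -0.24, Cd34 in OKO vs YKO -0.22, and Ly6a, Cd34 and Fgd5 in OKO vs OWT 0.078, 0.068 and 0.094. The batch term of that fit rests on OKO alone, the only group with libraries of both batches. With OKO of 1 batch, Ly6a, Cd34 and Fgd5 in OKO vs OWT were 0.10, 0.10 and 0.12 and Cd34 in OKO vs YKO -0.16. Without YWT2, YKO1 and YKO2, Cd34 and Flt3 in OWT vs YWT were -0.11 and -0.028, Slamf1 and Fgd5 in YKO vs YWT 0.080 and 0.049, Ctnnal1 in OKO vs YKO -0.36 and Fgd5 in OKO vs OWT 0.0033. Ctnnal1 in OKO vs YKO was -0.066 with the plasma cell list as a covariate and -0.017 without OKO1, OKO2 and OKO3. The replicate block left 0 of 9 markers called in each comparison and the interaction, and under it Cd48 in OKO vs OWT was -0.82 and Fgd5 0.016. Replicate numbers shared only a number: 2 of 16 pairs of libraries with the same number had a correlation above 0.1, from -0.45 to 0.28. When 1 library was left out, the markers that changed sign ranged as follows. In OKO vs OWT, Cd34 from -0.67 to 0.085, Cd48 from -0.41 to 0.71, Fgd5 from -0.19 to 0.40, Flt3 from -0.44 to 0.066. In OWT vs YWT, Cd34 from -0.36 to 0.12, Ctnnal1 from -0.011 to 0.26, Flt3 from -0.20 to 0.25. Ctnnal1 in OKO vs YKO ranged from -0.13 to 0.28. In YKO vs YWT, Kit from -0.0085 to 0.17, Ly6a from -0.90 to 0.073, Slamf1 from -0.24 to 0.0082.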
